A study of Caenorhabditis elegans with 6 samples.

Results

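The transcriptome of day 6 adults fed bacteria with an empty vector was described from 3 libraries out of the 6 in the series. Members were chosen by title and treatment label alone. Libraries of the other treatment appear only in the last paragraph of the Results and in the notes on processing, beside the empty vector values. Each library was made from a pool of whole Caenorhabditis elegans of strain CL2006. The strain carries the transgene pCL12, in which unc-54 sequence drives a minigene of human Abeta peptide 1-42, together with the marker plasmid pRF4. Worms ate HT115 bacteria holding the empty vector (EV) over 2 generations, and the second generation was washed each day to remove offspring until collection on day 6 of adulthood at 20 °C. The labels give all 6 libraries of the series this genotype, so every level below is that of a transgenic worm whose Abeta is driven by a body wall muscle myosin gene. The labels give the 3 libraries the batch numbers 2, 3 and 4, without saying what a batch was, so replicate and batch cannot be told apart. Total counts were 49990861, 43067539 and 48512260 in the batch 2, 3 and 4 libraries.

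The adult hermaphrodite turns much of its intestine to making vitellogenins, the yolk proteins, which are secreted into the body cavity and taken up by growing oocytes. Oocytes carry stored messenger RNAs for early development and for the eggshell, whereas sperm genes are transcribed in the larval germline and most cuticle collagens are made in pulses around each moult. In RNA from whole worms, fewer cells of a type and less RNA per cell cannot be told apart.

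Of 22416 counted genes, 20640 had at least 1 count in some library, and 1776 (7.92%) were at 0 in all 3. A mean of 1 CPM (the count of a gene per 1000000 counts of its library) was reached by 12436 genes, 5 CPM by 8966 (40%), 100 CPM by 2404 and 1000 CPM by 79. Protein-coding genes took 99.7% of counts, pseudogenes 0.290% and long intergenic RNAs 0.0132%. Counts were concentrated in few genes. The 3 genes with the most counts held 6.48%, 8.80% and 7.02% of the batch 2, 3 and 4 libraries, and 50% of counts lay in 725, 667 and 708 genes. The batch 2 library spread its counts over the most genes: 90% of counts lay in 4676 genes there, against 4126 in batch 3 and 4132 in batch 4.

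Yolk protein genes led the counts. vit-6 (WBGene00006930, chromosome IV, 8261157 to 8266459 in WBcel235) stood at 28356, 43922 and 36640 CPM in the batch 2, 3 and 4 libraries. vit-2 (WBGene00006926, chromosome X, 5101042 to 5106169) had 22145, 24162 and 17508 CPM, and vit-5 had 14308, 19913 and 16005 CPM. The batch 3 library was the highest for each of these 3 genes. All 6 vitellogenin genes together took 7.995% ± 1.34 of counts (SD, n = 3): 6.94%, 9.51% and 7.53%. vit-1, named after its values were seen, ran in another order, with 1277, 785 and 641 CPM, so that batch 2 was the highest. vit-3, vit-4 and vit-5 are close copies, and how reads shared between them were counted is not known here.

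Next in counts came the machinery of protein synthesis and folding. eef-1A.1 (WBGene00001168, chromosome III, 6970026 to 6971712), which encodes the elongation factor that brings aminoacyl-tRNA to the ribosome, had 11254, 10440 and 10907 CPM. eef-2, the translocation factor, had 5234, 5055 and 5490 CPM, and hsp-1, a constitutive HSP70 chaperone, had 3930, 3826 and 4119 CPM. These 3 genes lay close together in all libraries, with a coefficient of variation (CV, the SD over the mean) of 0.038, 0.042 and 0.038. hsp-90, the HSP90 chaperone, followed with 3162, 3109 and 3348 CPM. The 30 genes with the highest mean CPM held 5 vitellogenins, 5 cytosolic ribosomal proteins (rpl-3, rpl-4, rpl-7, rla-0 and rps-0), 5 germline or eggshell genes, 3 translation factors and 3 chaperones.

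**Figure D1:**
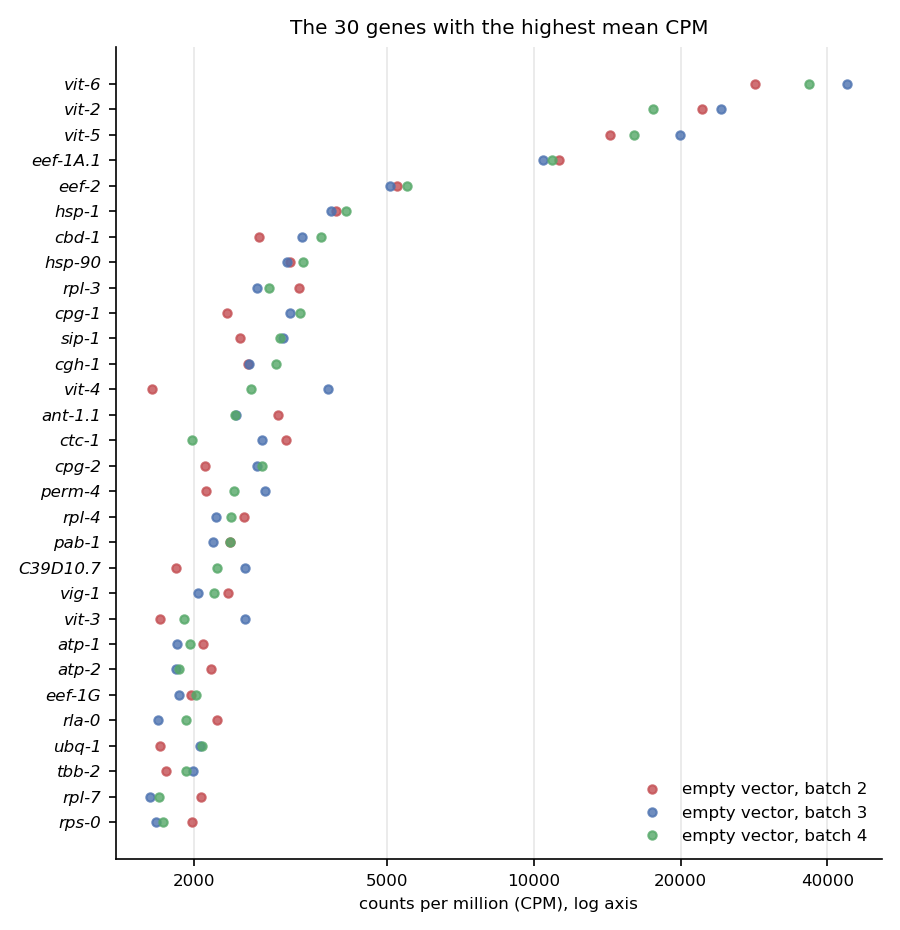
CPM (log axis) of the 30 genes with the highest mean, 1 point for each of the 3 empty vector libraries, coloured by batch. vit-6, vit-2 and vit-5 sit above all other genes, from 14308 to 43922 CPM, and the points of eef-1A.1, eef-2, hsp-1 and hsp-90 lie closer together than those of the vitellogenins.

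Eggshell and oocyte genes were the other large group at the top. cbd-1, which encodes a chitin-binding protein of the eggshell, had 2720, 3334 and 3655 CPM. cpg-1, a chondroitin proteoglycan of the eggshell, had 2342, 3158 and 3303 CPM, and cpg-2, a second one, had 2108, 2701 and 2766 CPM. For all 3 genes batch 2 was the lowest and batch 4 the highest. cgh-1, an RNA helicase of germ granules, had 2585, 2595 and 2949 CPM. sip-1, a small heat shock protein of the germline and embryo, had 2488, 3049 and 3013 CPM, whereas perm-4, needed for the permeability barrier of the eggshell, was highest in batch 3, with 2119, 2799 and 2421 CPM. C39D10.7 on the X chromosome, a gene with no name beyond its sequence, was in the same range, with 1841, 2549 and 2233 CPM.

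CPM favours long genes, so genes were also ranked by a level per length: counts over the summed exon length of the gene, scaled to a sum of 1000000 in each library (transcripts per 1000000, TPM). On that scale vit-6 had 10699 ± 2592 TPM and eef-1A.1 10497 ± 240 TPM (SD, n = 3), which differ by less than the SD of vit-6. sip-1 (WBGene00004798, chromosome III, 10506106 to 10506801) came next with 6634 ± 946 TPM, next to vit-2 with 6400 ± 1020 TPM, and these differ by less than the SD of either gene. vit-5 followed with 5123 ± 1011 TPM and rpl-41.2, a ribosomal protein gene with a near copy, with 4231 ± 753 TPM. far-2, a secreted fatty acid and retinol binding protein, reached 3715 ± 381 TPM, and perm-4 3295 ± 553 TPM. Of the 20 genes highest in TPM, 11 encoded cytosolic ribosomal proteins, and 14 of the 30 genes highest in CPM were also among the 30 highest in TPM.

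Grouped by gene class, cytosolic ribosomal proteins followed the vitellogenins. The 82 ribosomal genes took 8.16%, 6.49% and 6.89% of counts in batches 2, 3 and 4, and 17.6% ± 1.64 of the level per length. Vitellogenins, with long transcripts, took 2.39% ± 0.460 of the level per length. The batch 2 share of ribosomal proteins was 1.22 times the mean of batches 3 and 4 with scaling by total counts, 1.02 times with edgeR's TMM factors and 0.968 times with DESeq2's size factors, so its direction depended on the scaling. TMM and DESeq2 moved the median gene of batch 2 against the other libraries by -0.26 and -0.34 on the log2 scale, where scaling by totals left it at -0.0041. Ratios of batch 2 below are by totals, and those under the other scalings are given where the direction flips.

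Other housekeeping classes followed. Chaperones and folding enzymes took 2.79%, 2.72% and 2.87% of counts, translation factors 2.78%, 2.63% and 2.77%, and ubiquitin and proteasome genes 1.27%, 1.37% and 1.40%. Glycolysis and TCA cycle genes took 1.19% ± 0.0917, led by aco-2, the mitochondrial aconitase, at 858 CPM and enol-1, enolase, at 727 CPM. Subunits of the respiratory chain encoded in the nucleus took 1.06% ± 0.0969. The 12 protein-coding genes of the mitochondrial genome took 1.02%, 0.844% and 0.605% by totals, highest in batch 2 and lowest in batch 4. With TMM factors these values became 0.908, 0.907 and 0.634, so that batches 2 and 3 were near equal. With DESeq2 factors they became 0.876, 0.923 and 0.645, highest in batch 3. ctc-1, a subunit of cytochrome c oxidase, had 3097, 2763 and 1990 CPM. Genes known only by a sequence name were 9573 of the counted genes and took 18.2% ± 0.112 of counts.

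**Figure D2:**
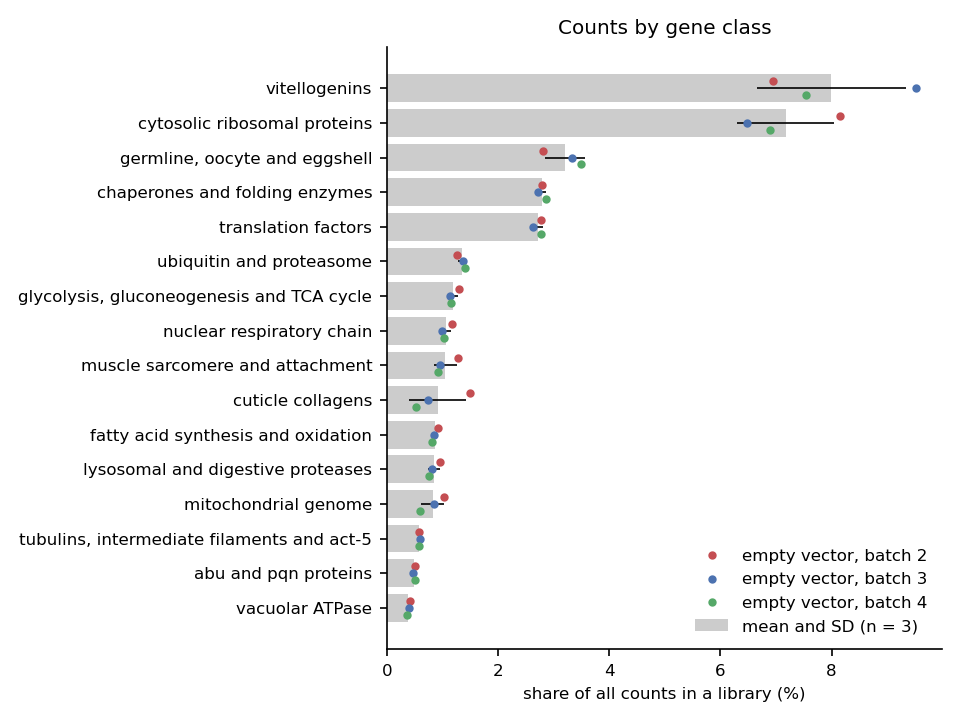
Share of all counts (%) taken by 16 gene classes in the empty vector libraries, as the mean (bar) with SD over 3 libraries and 1 point per library, coloured by batch. Vitellogenins and cytosolic ribosomal proteins take 7.995% and 7.18% on average, and the points of the cuticle collagens run from 0.524% to 1.5%.

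Of all counted genes 40% reached 5 CPM, and several large families had a smaller share of members at that level. The 1308 chemoreceptor genes together took 0.0120% ± 0.00311 of counts, only 3 of them reached 5 CPM, and 302 were at 0 in all 3 libraries. str-176 led them with 18.2, 13.7 and 13.3 CPM. Of 239 C-type lectins 44 reached 5 CPM, led by clec-87 at 918 ± 156 CPM. Of 137 neuropeptide genes 41 did, and nlp-77 led with 324 ± 71.3 CPM, ahead of nlp-40 at 101 ± 9.78 CPM. Of the 273 nuclear hormone receptors 76 did, with nhr-49, a regulator of fat metabolism, highest at 137 ± 5.72 CPM. In the antimicrobial class lys-7, a lysozyme, had 275, 665 and 663 CPM, so the batch 2 library held less than batches 3 and 4.

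Chromosomes differed in how many of their genes were active. A mean of 5 CPM was reached by 60.9% of protein-coding genes on chromosome III and 57.02% on chromosome I, but by 29.5% on chromosome V, which holds many chemoreceptors. The X chromosome had 43.6% of its genes past that level, close to chromosomes II (43.4%) and IV (44.7%). Among the genes past it, however, the median level per length was 18.5 TPM on the X and 42.7 to 58.2 TPM on the autosomes. The X is known to be kept largely silent in the germline of the worm. All vitellogenin genes but vit-6 lie on the X, and the X took 10.5% ± 0.994 of counts.

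The libraries were described with 14 lists of tissue and stage markers holding 232 genes, all of them counted. The lists were chosen with earlier results of these data known, so their counts are a description and no independent check. After the yolk list, the lists of the female germline and its products summed to the highest levels. The germline and oocyte list (32 genes) summed to 16343, 18346 and 19939 CPM, with cgh-1, cey-2, a cold-shock domain protein of the germline, and car-1, a germ granule protein, on top. The eggshell list (9 genes) summed to 11732, 14908 and 15000 CPM. Batch 2 was the lowest library for 28 of the 32 germline and oocyte genes and for 8 of the 9 eggshell genes, against 44.1% of all genes with a mean of 5 CPM or more.

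The lists of muscle, of intestine with the yolk genes kept apart, and of neurons summed to less. Lists differ in size and hold known markers, not all transcripts of a tissue, so their sums do not rank tissues. The body wall muscle list (27 genes) summed to 8248, 5960 and 5808 CPM. Batch 2 was the highest for 25 of the 27 at any level, against 59.8% of all genes with a count. At a mean of 5 CPM or more batch 2 was the highest for 92.3% of 26 list genes and 43.7% of all genes. The share of all genes was 26.1% with TMM and 22.7% with DESeq2 factors, for which the list genes were not recounted. unc-54, the body wall myosin heavy chain whose sequence drives the transgene, led that list with 1652, 1283 and 1167 CPM. It stood at 326 ± 48.4 TPM, rank 439 of all genes per length. Reads of the minigene that share unc-54 sequence would be counted with it. The intestine list (16 genes) summed to 3209, 2198 and 2064 CPM, with 1460, 710 and 738 CPM of the aspartyl protease asp-1. Neuronal markers (33 genes) summed to 1077, 963 and 915 CPM, and the batch 2 excess of 1.15 times turned to 0.959 times with TMM and 0.910 times with DESeq2 factors. tdc-1, tyrosine decarboxylase, led the neuronal list with 179, 244 and 259 CPM; the enzyme is also made in gonadal sheath cells.

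Lists of embryonic, sperm and small somatic cell groups were lowest. Markers of zygotic transcription in the embryo (14 genes) summed to 38.7, 31.4 and 25.6 CPM, and 2 of the 14 reached 5 CPM. Coelomocytes, the scavenger cells of the body cavity, had 12.5, 12.03 and 9.03 CPM over 3 genes, and glia 35.3, 21.5 and 18.1 CPM over 5 genes. The spermatogenesis list of 50 genes summed to 405, 87.2 and 74.6 CPM. ssq-2 led that list with 27.2, 4.34 and 3.525 CPM, and the batch 2 library was 5.003 times the mean of batches 3 and 4 for the whole list.

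**Figure D3:**
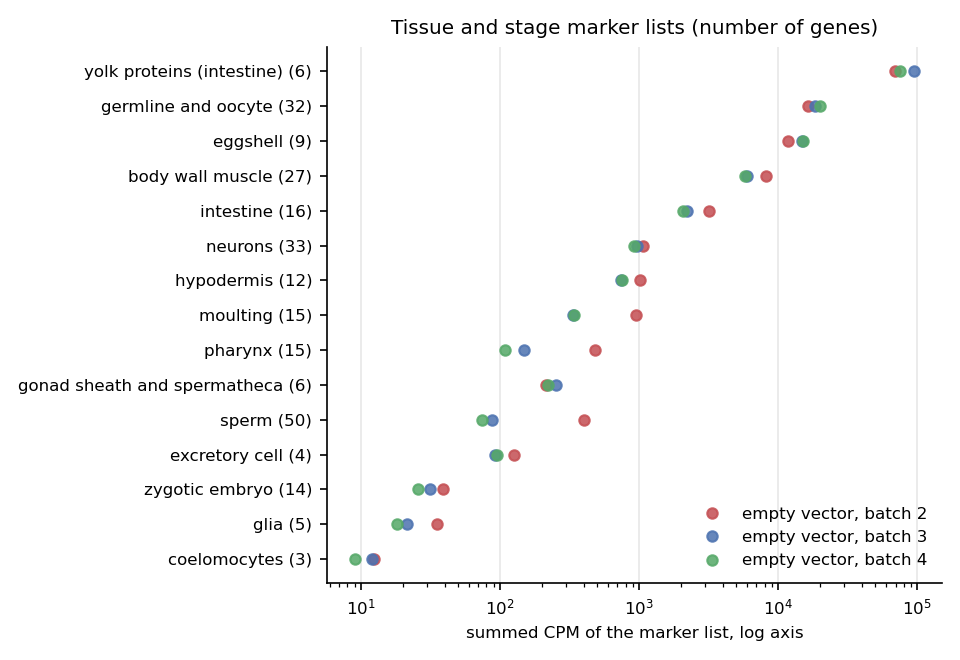
Summed CPM (log axis) of 15 marker lists, with the number of genes in parentheses and 1 point per empty vector library, coloured by batch. Batch 2 stands to the right of both other libraries for most lists, among them sperm (405 against 87.2 and 74.6), pharynx and moulting. It stands to the left for yolk, germline and oocyte, eggshell, and gonad sheath and spermatheca.

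The spread of each gene over the 3 libraries was measured by the CV of its CPM. Among the 8966 genes with a mean of 5 CPM or more the median CV was 0.107, against 0.0221 for counting error alone, and edgeR's common biological CV was 0.320. A CV of 0.5 or more was found for 635 genes (7.08%), called variable here, and a CV of 0.05 or less for 1454 (16.22%), called steady. The values next to these thresholds were 0.50003 and 0.4992 for variable genes and 0.049999 and 0.05005 for steady ones. Variable genes were mostly low: 17.4% of genes from 5 to 20 CPM were variable, 3.49% from 20 to 100 CPM, 1.03% from 100 to 500 CPM and 0.380% above. The median CV was 0.211, 0.0909, 0.0888 and 0.108 in these bins, so it was not lowest in the top bin. Without batch 2, 18 of 8488 genes were variable and 4468 steady. A gene can pass the level of 5 CPM through 1 high library, which favours a high CV without fixing a CV of 0.5 or more. With the level asked of batches 3 and 4 alone, 316 of 8488 genes (3.72%) were variable over the 3 libraries. With TMM factors 420 genes were variable, 411 of them also by totals, and 599 were steady.

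**Figure D4:**
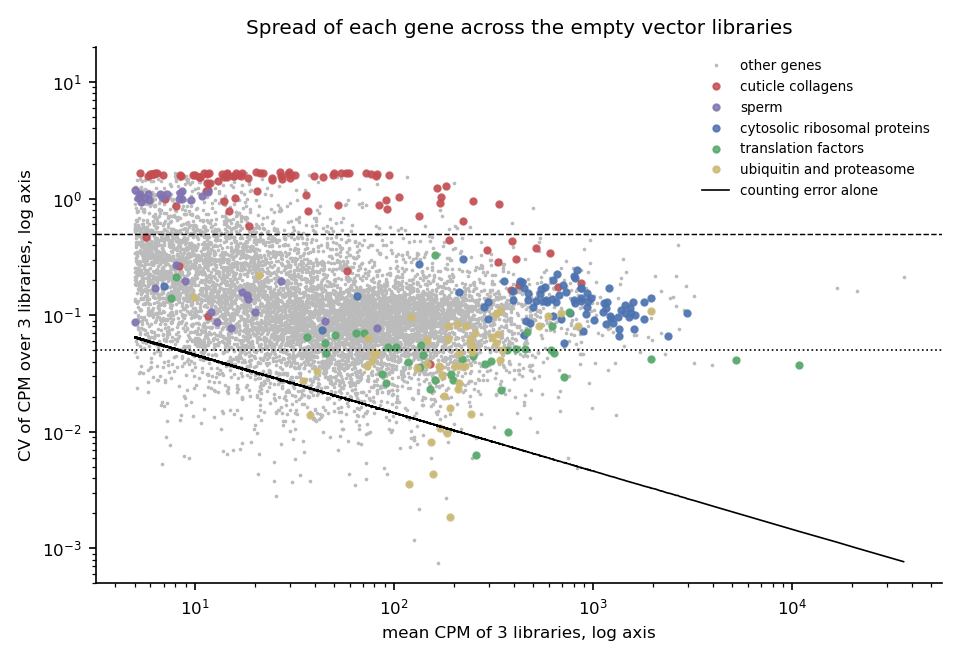
Coefficient of variation over the 3 empty vector libraries against mean CPM, both on log axes, for 8966 genes, with 5 classes in colour. The dashed and dotted lines mark the thresholds of 0.5 and 0.05 and the solid line counting error alone. In the cuticle collagen class 85 of 101 genes lie above the upper line, most of them having passed 5 CPM through batch 2.

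For 603 of the 635 variable genes (94.96%) the library that stood apart was batch 2, and it stood above the others. Batch 2 stood below for 12 genes, batch 3 below for 17 and batch 4 below for 3. Over all 8966 genes batch 2 was the library farthest from the others for 66.6%, and it stood above them for 33.9%. Variable genes that passed 5 CPM only through batch 2 had to stand high there, so the filter fixed part of the 94.96%. With the level asked of batches 3 and 4 alone 316 genes were variable, and the library that stood apart was not counted among them. Pearson's r of log2 CPM across these genes was 0.935 between batches 2 and 3, 0.924 between batches 2 and 4, and 0.995 between batches 3 and 4. Genes are not independent replicates, so these values only describe the libraries. Counts of every pair differed by more than sampling noise, with a chi-square per degree of freedom of 18.5 to 104.4, so no library was a copy of another.

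Cuticle collagens were the class with the highest share of variable genes. Of 176 genes counted in the class, 101 reached a mean of 5 CPM and 85 of these were variable, but most had passed that level through batch 2. The class also holds dpy-18, which encodes a collagen-modifying enzyme, not a collagen, and was not variable. With the level asked of batches 3 and 4 alone, 37 collagens passed and 22 were variable, against 3.72% of all genes, and their median batch 2 level was 3.45 times that of batches 3 and 4, where it was 0.979 times for all genes. At any level, batch 2 was the highest for 154 of the 176 collagens, against 59.8% of all genes with a count. The 85 summed to 9023 CPM in batch 2, 1320 in batch 3 and 970 in batch 4, and all 85 were highest in batch 2, by 2.51 to 132 times the mean of the others, with a median of 28.9 times. col-41 (WBGene00000618, chromosome X, 15175032 to 15176481) had the highest CV of all genes with a mean of 20 CPM or more, at 1.69, from 88.3, 1.09 and 0.247 CPM. dpy-13 (WBGene00001074, chromosome IV, 4235614 to 4236710), a collagen whose loss makes worms short and fat, had 174, 3.53 and 1.57 CPM. dpy-4 had 211, 4.85 and 2.21 CPM and dpy-5 145, 3.32 and 1.32 CPM. Of the 20 genes with the highest CV at that level, only grl-16, a Ground-like protein, and Y47D7A.13 were not collagens. With TMM factors 84 of 100 were variable. Between batches 3 and 4, 0 of the 37 past 5 CPM there had a CV of 0.5 or more.

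The collagens with the highest levels lay outside that set. The other 16 genes of the class past 5 CPM, the enzyme gene dpy-18 among them, summed to 5782, 5982 and 4238 CPM. Their batch 2 level was 0.482 to 2.05 times the mean of batches 3 and 4. col-122 led the whole class with 930, 1002 and 689 CPM. col-119 had 824, 584 and 412 CPM, and col-181 had 708, 763 and 539 CPM. rol-6, which the marker plasmid pRF4 carries, was the one collagen steady by totals, with 145, 153 and 156 CPM, and ranked 18 of the class per length. Its reads include those of the plasmid, so its level is not that of the chromosomal gene alone. col-19, a collagen used as a marker of the adult cuticle and named after its values were seen, was among the variable ones, with 376, 78.3 and 61.6 CPM. The whole class took 1.5%, 0.733% and 0.524% of counts.

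Genes that act in the cuticle and at the moult were mostly highest in batch 2 as well. Batch 2 was the highest for 42 of 45 cuticlins and other cuticle proteins at any level, against 59.8% of all genes with a count. With the level asked of batches 3 and 4 alone, 6 of 13 were variable, against 3.72% of all genes. noah-1 and noah-2, apical matrix proteins, had 179, 73.9 and 72.2 CPM and 137, 54.7 and 53.7 CPM. mlt-11, a protease inhibitor needed for moulting, had 146, 34.3 and 36.3 CPM. A list of 15 moulting genes, added after the values were seen, summed to 959, 337 and 343 CPM. The timing genes lin-14 and hbl-1, which specify larval stages and were likewise picked by their values, had 72.7, 23.8 and 25.1 CPM and 114, 28.6 and 27.5 CPM. nhr-23, the receptor that drives moulting cycles, went the other way with 40.9, 50.6 and 57.1 CPM.

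Pharyngeal and sperm markers were highest in batch 2 too. All 15 pharynx markers were, against 59.8% of all genes with a count. Of the 6 that passed 5 CPM in batches 3 and 4 alone, 5 were variable, against 3.72% of all genes. myo-2, a myosin found only in pharyngeal muscle, had 138, 42.9 and 28.3 CPM, and myo-1 had 118, 32.3 and 23.2 CPM. The list summed to 483, 149 and 109 CPM, a batch 2 excess of 3.74 times by totals, 3.13 times with TMM and 2.97 times with DESeq2 factors. Of the 48 sperm markers with a count, 45 were highest in batch 2, against the same 59.8%. However, 0 of them reached 5 CPM in batches 3 and 4 alone, so how many passed as variable says nothing of the list. Its excess was 5.003, 4.18 and 3.97 times. Major sperm protein genes are near copies of each other, so their single levels are uncertain. In the broader sperm class, 0 of the 13 genes past 5 CPM in batches 3 and 4 alone were variable. spe-39, a trafficking gene of many tissues, had 75.9, 82.5 and 88.7 CPM and spe-48 40.4, 46.3 and 48.0 CPM.

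**Figure D5:**
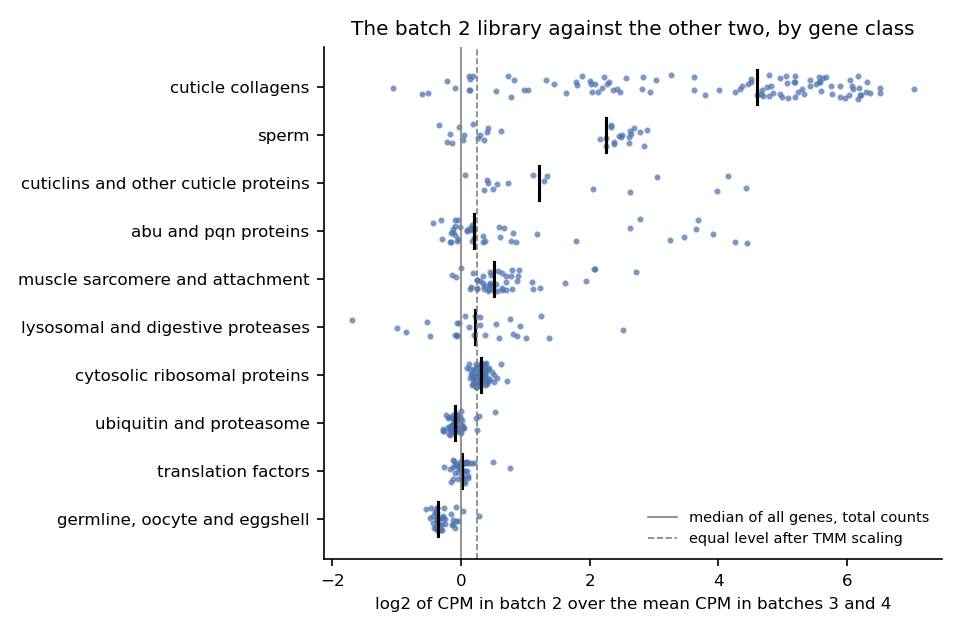
Log2 ratio of CPM in the batch 2 library over the mean CPM in batches 3 and 4, 1 point per gene with a mean of 5 CPM or more, by gene class, with the class median as a black bar. The grey line is the median of all genes by totals and the dashed line the ratio that becomes equal with TMM; the 85 variable collagens lie to the right, from 2.51 to 132 times, most having passed 5 CPM through batch 2, and the germline, oocyte and eggshell class lies to the left.

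Some metabolic enzymes were among the variable genes with the highest levels. The following were picked by their values, and they stand for no class: 1 of 45 genes of glycolysis, gluconeogenesis and the TCA cycle was variable, against 7.08% of all genes. icl-1, the bifunctional enzyme of the glyoxylate cycle, had 988, 264 and 256 CPM. sodh-1, an alcohol dehydrogenase, had 521, 35.1 and 48.4 CPM. acs-2, an acyl-CoA synthetase of mitochondrial fat oxidation that is known to rise on fasting, had 208, 16.95 and 21.1 CPM. lipl-5, a lysosomal lipase, had 241, 105 and 85.5 CPM. In each case batch 2 was the highest and batches 3 and 4 lay near each other. Within the class of fatty acid synthesis and oxidation 10 of 65 genes were variable. With the level asked of batches 3 and 4 alone, 7 of 62 were, against 3.72% of all genes. The leading members of the class, fat-2, a desaturase, and acs-4, were not variable, with 740, 991 and 760 CPM and 589, 640 and 683 CPM.

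Few variable genes departed from that pattern. Batch 2 was the low library for 12 genes, named here after their values were seen, among them F40D4.13 with 12.002, 74.1 and 80.8 CPM and sysm-1 with 33.8, 139 and 114 CPM. asp-17, an aspartyl protease, had 16.103, 51.1 and 52.98 CPM. Batch 3 was the low library for 17 genes, of which 7 were annotated as pseudogenes. Pseudogenes were 9 of all 635 variable genes and 75 of all 8966 genes with a mean of 5 CPM or more. tos-1 had the highest level of the 17 genes, with 317, 85.7 and 218 CPM. Between batches 3 and 4 alone, 16 of the 18 variable genes were lower in batch 3. How many of all genes were lower there was not counted. Of the 18 genes 7 were pseudogenes, against 69 of all 8488 genes. prg-2 (79.2 and 168 CPM) and drh-2 (7.99 and 28.1 CPM) were among these pseudogenes, both named for their values. prg-2 is related to the Piwi protein gene prg-1, and drh-2 to the Dicer-related helicase gene drh-1.

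Which genes counted as steady depended on the scaling. By totals, 29 of 53 ubiquitin and proteasome genes, 22 of 40 translation factors and 23 of 83 chaperones were steady, against 16.22% of all genes, and 0 of 81 ribosomal protein genes. With TMM factors these numbers were 2 of 53, 1 of 40, 4 of 83 and 54 of 81, against 6.72% of all 8920 genes. Of the 1454 genes steady by totals, 0 were steady with TMM. Between batches 3 and 4 alone, 1243 of the 1454 were steady, among 4468 in all. Without batch 2, 52 of 53 ubiquitin and proteasome genes were steady, against 52.6% of all genes. So were 22 of 40 translation factors, 36 of 83 chaperones and 50 of 81 ribosomal genes. Only the ubiquitin and proteasome group lay far from the share of all genes, and the chaperones lay below it.

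By totals, the steadiest genes with a mean of 100 CPM or more were the following. T25G3.3 (WBGene00012030, chromosome I, 7559839 to 7562349) had the lowest CV, with 167.3, 167.1 and 167.3 CPM. pas-5, a proteasome subunit, had 190.3, 190.8 and 191.0 CPM. sti-1, a co-chaperone of HSP70 and HSP90, had 183.6, 183.1 and 184.1 CPM, and par-5, a 14-3-3 protein, 834, 828 and 827 CPM. ubc-13 and ubc-20, ubiquitin-conjugating enzymes, gsp-1, a protein phosphatase, tbb-1, a beta tubulin, and eif-2alpha, an initiation factor, were also among the 15 lowest. For 14 of these 15 genes the CV was below that of counting error alone, as they were picked as the lowest of many. Among common reference genes for qPCR, cdc-42 had 237, 253 and 256 CPM, pmp-3 103, 119.2 and 119.001 CPM, iscu-1 46.4, 46.4 and 49.8 CPM, and tba-1 848, 925 and 915 CPM. act-1, an actin gene with close copies, spread more, with 211, 151 and 137 CPM.

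Stress and longevity regulators were present at moderate levels. daf-16, the FOXO factor of insulin signalling, had 194, 214 and 211 CPM. hsf-1, the heat shock factor, had 113.5, 144 and 150 CPM and skn-1, the Nrf-like factor, 279, 359 and 375 CPM, both lowest in batch 2. Inducible small heat shock proteins were low: hsp-16.2 had 10.9, 11.4 and 14.1 CPM and hsp-16.41 10.1, 10.9 and 11.9 CPM. gtr-1, the receptor gene targeted in the other libraries of the series, had 32, 16 and 12 counts, or 0.640, 0.372 and 0.247 CPM.

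The order of the batches could be set beside libraries that played no part in the choice of variable genes, those labelled gtr-1 RNAi, with 1 in each batch. Of the 635 variable genes, 462 (72.8%) had their 3 batches in the same order there, against 58.3% of all 8966 genes. Batch 2 was the highest in both sets of libraries for most: the highest batch was the same for 96.1% of variable genes and 75.4% of all genes. Of the 85 variable collagens 81 (95.3%) kept the full order. Many of the 635 genes and most of the 85 collagens had passed 5 CPM through batch 2. In the empty vector libraries batch 2 was the highest for 97.95% of the 635, against 43.7% of all genes. The order was not recounted with the level asked of batches 3 and 4 alone, so these shares cannot be separated from that choice. A CV of 0.5 or more in the libraries labelled gtr-1 RNAi was found for 368 of the 8966 genes (4.1%), of which 304 were shared with the 635, 47.9% of the empty vector list and 82.6% of the other. A CV of 0.05 or less was found for 1228 (13.7%), of which 622 were shared, 42.8% and 50.7% of the lists. The sperm list summed to 414, 50.5 and 27.5 CPM in the libraries of batches 2, 3 and 4 labelled gtr-1 RNAi, and the pharynx list to 393, 264 and 141 CPM. What set batch 2 apart was not tested.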

How the data were processed

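Whole-worm RNA of 3 empty vector pools was sequenced from stranded poly(A) libraries made with a KAPA kit, per the labels' protocols. The build was WBcel235, and the tools were HTSeq 2.01, TopHat2 2.1.1, cutadapt 2.10 and DESeq2 1.36.0, per the submitters' processing notes. Their settings, the use of strand and the handling of reads shared by genes were not given there.

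The authors deposited whole-number counts per gene for 22416 of 46934 rows; the other 24518 rows hold no value. The 12 columns of normalized and batch-corrected values were not used. Groups came from the sample titles and the treatment label.

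CPM is the count over the sum of counts of a library. TPM used summed exon lengths from the Ensembl annotation, release 115, which holds 22406 of the genes; the other 10 have no TPM. Python 3.11.15, pandas 2.3.3, edgeR 4.0.16 (TMM, common dispersion) and DESeq2 1.42.0 (size factors) in R 4.3.3 were used. The CV step was tested on simulated data. With 1 group of 3 libraries no test between groups was made and no p-value is given. The labels do not say that the pools came from separate cultures beyond 3 sets of worms, so SDs may be partly technical, and with n = 3 they are rough. Depth of 43067539 to 49990861 counts per library makes the counting error of most genes small beside the spread between libraries.

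Genes fell into 34 classes, each gene in 1 class, and 14 marker lists. The members and lists were chosen with earlier results of these data known. Named are the 30 genes highest in CPM, the 20 highest in TPM, the 3 highest of a class or list, the 20 with the highest CV (mean of 20 CPM or more), the 15 with the lowest (100 CPM or more) and a set of transgene, stress and reference genes; others are marked as picked by their values. Alternatives were TMM and DESeq2 scaling, other CPM and CV limits, levels per length, vitellogenins left out of the total, and leaving out each library. Leaving out collagens, the level limit on batches 3 and 4 alone, scaling the sums of classes and lists by TMM and DESeq2, the moulting list and the heat shock list were added after seeing the data.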

Additional observations from a re-analysis of the deposited data

How the results depend on the processing

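No paired analysis was possible because the description covers 1 group and rests on no test. The count of 635 variable genes became 420 with TMM factors, 395 with DESeq2 factors, 7319 with no filter on level 156 at a minimum of 20 CPM and 316 with the level of 5 CPM asked of batches 3 and 4 alone; leaving out 1 library in turn gave 18 to 856, the lowest without batch 2. It was 550 without the cuticle collagens and 915 at a CV of 0.4. The count of 1454 steady genes became 599 with TMM, 462 with DESeq2 factors and 4126 at a CV of 0.1; leaving out 1 library gave 1728 to 4468, the highest without batch 2. Per length instead of per count, 14 of the 30 leading genes remained, and the shares became 2.39% for vitellogenins, 17.6% for ribosomal proteins, 2.76% for germline, oocyte and eggshell genes, 0.496% for the body wall muscle list and 0.0583% for the sperm list. At a minimum of 20 CPM, 121 of 156 variable genes had the same batch order in the libraries labelled gtr-1 RNAi, against 61.2% of all 6220 genes. Genes could pass that level, too, through batch 2. Among the alternatives planned, the level per length put ribosomal proteins above vitellogenins, the reverse of their order by counts. With TMM, 54 of 81 ribosomal genes were steady instead of 0, and 2 of 53 ubiquitin and proteasome genes instead of 29. The share of all genes was 6.72% with TMM and 16.22% by totals. Under the scaling of sums added later, the batch 2 ratio crossed 1 with TMM or DESeq2 for 18 of 34 classes, ribosomal proteins among them. It also did so for 3 of 16 lists, neurons, coelomocytes and inducible heat shock proteins. The causes were not tested. Depth limits genes below 1 CPM, such as gtr-1, most, and near-identical genes carry an unknown split of reads.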

Other observations

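Inducible heat shock genes were compared as a list of 10, added after the data were seen. They summed to 78.7, 61.0 and 83.8 CPM in the batch 2, 3 and 4 libraries, so batch 3 was the lowest, and 2 of the 10 genes were at 0 in all 3 libraries. hsp-70 had the highest level of the list, with 43.9, 29.02 and 45.3 CPM. hsp-4, the endoplasmic reticulum BiP chaperone, was far more abundant in CPM, at 504, 553 and 594.

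Intermediate filaments and intestinal transport genes were also among the variable genes. ifb-2, an intermediate filament protein of the intestine, had 125, 27.7 and 23.6 CPM, and pept-1, an intestinal peptide transporter, 69.0, 26.6 and 27.02 CPM. vha-6, an intestinal subunit of the proton pump, had 202, 193 and 172 CPM, so the intestinal markers did not share 1 ratio between libraries. The long non-coding RNA lep-5, which acts in developmental timing, had 70.4, 27.8 and 23.4 CPM. All of these genes were picked by their values.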
